A study of Mus musculus with 7 samples.

Results

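The transcripts of respiratory complexes II to V and of cytochrome c were examined in mouse myoblasts with and without Hmga2. A gene belonged to this set when its symbol starts with Sdha, Sdhb, Sdhc, Sdhd, Uqcr, Cox4, Cox5, Cox6, Cox7, Cox8 or Atp5, or is Cyc1 or Cycs, and when an array probe set was paired with that gene alone. The rule uses no measured value and found 52 of the 18194 measured genes. They comprised 4 subunits of complex II, 4 assembly factors of complex II, 9 subunits of complex III, somatic cytochrome c, 17 subunits of complex IV and 17 of the ATP synthase, which is complex V. Each gene was represented by its brightest probe set, and no member was removed for a low value. RNA of myoblasts, which fuse to form the fibres of skeletal muscle, was hybridised to 7 Affymetrix mouse genome arrays. The wild type group held 3 samples, all from female C57BL/6 mice. The Hmga2 KO group held 4 samples from C57BL/6 mice of the Hmga2 -/- genotype, with males as replicates 1 and 3 and females as replicates 2 and 4. No treatment was given to either group, and the age of the mice, the extent of the deletion and whether cells of several mice were pooled remain unstated in the labels.

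Complex II, succinate dehydrogenase, oxidises succinate in the citrate cycle and passes the electrons to ubiquinone. Complex III hands them to cytochrome c, complex IV (cytochrome c oxidase) transfers them to oxygen, and complex V uses the resulting proton gradient to make ATP. Several small subunits of complex IV exist as isoforms from separate genes, and skeletal muscle and heart replace the common forms of subunits VIa, VIIa and VIII by Cox6a2, Cox7a1 and Cox8b as they mature.

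The targeted transcript was near background in the Hmga2 KO samples. The intensity of Hmga2 was 11599 ± 1443 (SD, n = 3) in wild type samples. In Hmga2 KO it was 95.8 ± 7.70 (SD, n = 4), with a log2 difference of -6.90 and an adjusted p of 1.00e-08 in limma. All arrays had a median intensity of 150, and the 3'/5' signal ratio of Actb, which tracks RNA integrity, was 1.94 for wild type replicate 2, 1.74 for Hmga2 KO replicate 2, and between 1.61 and 1.66 elsewhere. The myoblast label was checked on 9 markers: Pax7, Myod1, Myf5, Myog, Des, Cdh15, Chrna1, Itga7 and Mymk. The mean log2 values of the 9 markers over the 7 samples lay between 10.55 and 14.13. The 15 markers of differentiated muscle fibres lay between 6.82 and 13.73, with a median of 10.67, so fibre transcripts were present as well. Markers of adipocytes, endothelium, leukocytes and heart muscle lay between 5.76 and 6.94, close to the top of the background of 5.89 that probe sets of Y-linked genes gave in females. The 7 measured fibroblast markers had a median level of 7.24, with Col3a1 and Col1a1 well above that background. Their mean log2 value, relative to each gene's mean over the 7 samples, was 0.36, -0.27 and -0.15 in wild type replicates 1 to 3. In Hmga2 KO replicates 1 to 4 it was 0.67, -0.52, 0.01 and -0.10. The part of fibroblast content in the differences of the members was not tested. Samples are labelled as biological replicates, and the small number of arrays limits the precision.

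Most members lay slightly lower in Hmga2 KO than in wild type, and none passed the test. The median difference of the 52 members was -0.23 on the log2 scale, against -0.07 for all genes, and single members ranged from -1.15 (Cox8b) to 0.83 (Cox6b2). In limma's test 0 members reached an adjusted p of 0.05, as did 0.0275% of all genes, and the smallest adjusted p of a member was 0.214, for Cox8b. Without adjustment, 19 members had a p under 0.05 with a lower level in Hmga2 KO, which is 36.5% of members against a background of 10.3% of all genes. The only such member with a higher level was Cox6b2, against 2.99% of all genes. Every Hmga2 KO sample lay below every wild type sample for 12 members (23.1%), where 9.29% of all genes did so, and above for Cox6b2 (2.37% of all genes). Of the members, 47 (90.4%) had a difference below 0, as did 67.6% of all genes, and 45 lay below the median of all genes.

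These shares were set against abundant genes as well, a comparison chosen after the values had been seen, because most members are abundant transcripts. Among the 4549 brightest genes, 8.18% had an unadjusted p under 0.05 with a lower level in Hmga2 KO, 8.93% had lower levels without overlap and 68.6% a difference below 0. The count of 19 members depended on single samples, being 29, 3 and 4 when wild type replicate 1, 2 or 3 was left out. It was 5 when Hmga2 KO replicate 1, 28 when replicate 2, and 11 when replicate 3 or 4 of that group was left out. The share of all genes with such a p also moved, between 5.47% and 13.8% over the samples left out. Over the other alternatives, listed below, that share was 4.62% to 13.2%. The members' count was 2 with sex in the model and in the 5 females alone. In the females 4.62% of all genes had such a p, so the share of members was not above that of all genes. The members' count also depended on the scaling of the arrays. The deposited values share a median, and under these 77.5% of all genes with an unadjusted p under 0.05 were lower in Hmga2 KO. This share was 46.1% when arrays were scaled to a common 75th percentile and 59.3% after quantile normalization. The members' count was 10 and 11. Both scalings belong to the other alternatives, where 4.62% to 13.2% of all genes had such a p with a lower level. The number of members below the median of all genes was 45 and 44 under these scalings, and 42 to 45 with each sample left out.

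**Figure D1:**
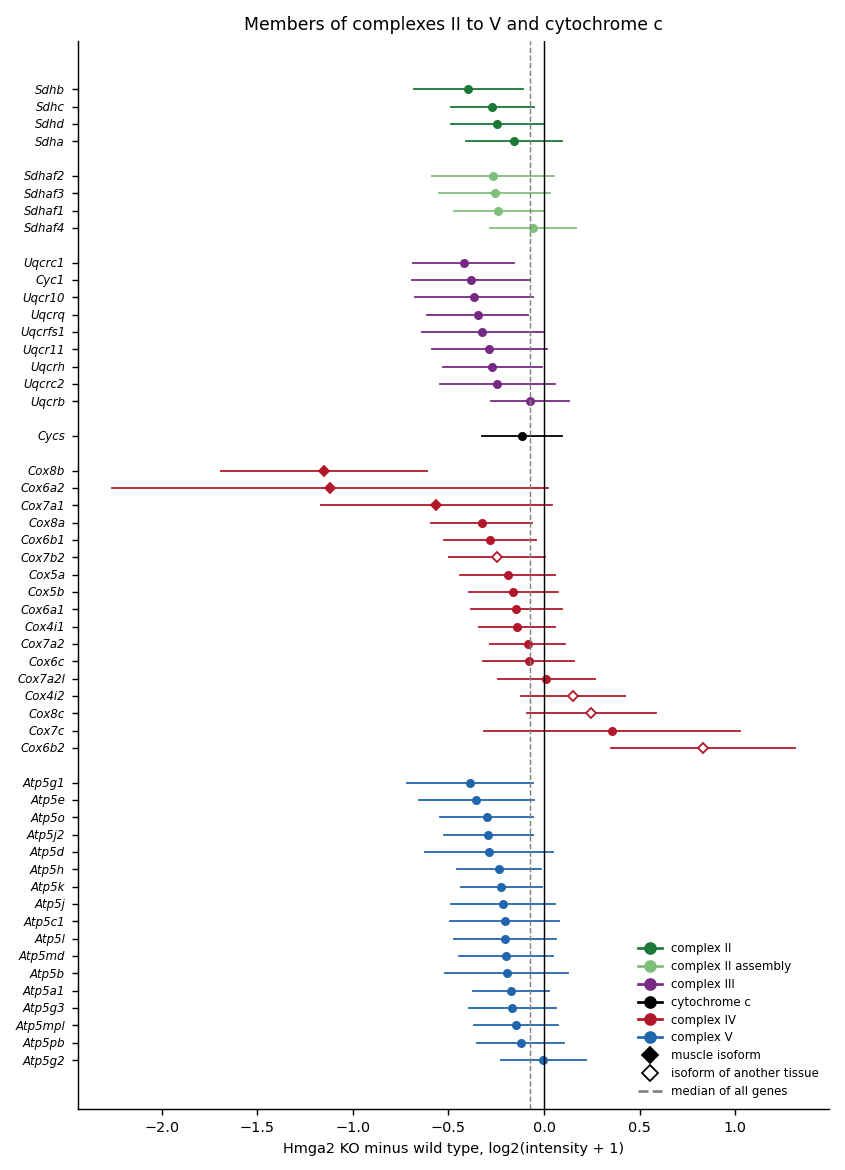
Difference in log2(intensity + 1), Hmga2 KO minus wild type, of each of the 52 members, grouped by complex, with 95% confidence intervals from limma (3 wild type and 4 Hmga2 KO samples). The dashed line marks the median of all genes at -0.07, and 45 members lie to its left, with Cox8b at -1.15 and Cox6b2 at 0.83 as the extremes.

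Promoter sequences were compared because most members differed in the same direction, and because the regulators of mitochondrial genes bind known motifs. RefSeq promoters of build GRCm38.p6, covering 250 bases before to 50 bases after a transcript start, were matched by symbol. Those used belong to 40 of the 52 members, with 43 promoters. The selection of member promoters left out a chromosome that the set of all promoters kept. Any member located there is missing from the member shares. The letters GCGCATG, the core of the motif of nuclear respiratory factor 1 (NRF1), were found on either strand in 20.9% of member promoters and in 3.91% of all 32851 promoters. CCGGAAG, the core bound by ETS factors such as the GA-binding protein, was found in 37.2% and 8.86%. AAGGTCA, bound by the oestrogen-related receptors, was found in 11.6% and 4.72%. The E-box CANNTG of the myogenic factors was found in 65.1% and 72.3%, and CCATNTT, the core of the YY1 motif, in 18.6% and 16.1%. Hits of NRF1 and E-box letters can overlap each other, as in Cox5b. Such matches are a description of these windows and do not show that a factor binds.

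The 250 bases before the start are given 5′ to 3′ for the 2 muscle isoforms with a promoter entry, for a common isoform, for cytochrome c and for the complex II subunit with the smallest p, so that both kinds of promoter can be seen. Capitals mark any match to a searched motif. Cox7a1 lies at chr7:30183921-30184170 on the plus strand and Cox8b at chr7:140900447-140900696 on the minus strand, and in both the only match is an E-box. Cox6a1 (chr5:115348959-115349208, minus strand) holds NRF1 letters on both strands as one run and, near the start, an ETS core. Cycs (chr6:50566570-50566819, minus strand) holds NRF1 letters only. Sdhb (chr4:140961021-140961270, plus strand) holds NRF1 letters and an E-box.
Cox7a1: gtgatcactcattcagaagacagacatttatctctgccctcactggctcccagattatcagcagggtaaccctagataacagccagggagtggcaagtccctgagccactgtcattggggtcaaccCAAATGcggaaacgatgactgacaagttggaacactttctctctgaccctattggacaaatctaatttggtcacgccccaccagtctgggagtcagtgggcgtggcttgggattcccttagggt
Cox8b: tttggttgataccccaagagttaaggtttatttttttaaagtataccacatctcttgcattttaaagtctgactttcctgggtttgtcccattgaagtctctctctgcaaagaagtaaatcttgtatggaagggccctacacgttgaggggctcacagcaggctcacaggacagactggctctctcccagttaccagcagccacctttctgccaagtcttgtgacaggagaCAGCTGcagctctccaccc
Cox6a1: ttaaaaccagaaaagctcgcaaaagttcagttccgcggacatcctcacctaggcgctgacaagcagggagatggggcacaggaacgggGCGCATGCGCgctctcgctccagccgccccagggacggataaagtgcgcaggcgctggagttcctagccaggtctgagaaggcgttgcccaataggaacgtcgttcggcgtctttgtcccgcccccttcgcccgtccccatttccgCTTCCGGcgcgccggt
Cycs: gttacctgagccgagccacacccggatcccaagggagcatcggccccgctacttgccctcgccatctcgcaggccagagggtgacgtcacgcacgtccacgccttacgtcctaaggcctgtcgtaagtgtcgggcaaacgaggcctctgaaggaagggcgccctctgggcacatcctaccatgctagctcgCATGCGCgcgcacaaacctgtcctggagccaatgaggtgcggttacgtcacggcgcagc
Sdhb: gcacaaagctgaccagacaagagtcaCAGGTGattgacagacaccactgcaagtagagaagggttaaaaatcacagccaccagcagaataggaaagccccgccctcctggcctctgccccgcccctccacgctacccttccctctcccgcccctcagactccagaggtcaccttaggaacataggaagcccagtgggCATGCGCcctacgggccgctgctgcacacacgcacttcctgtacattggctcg

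Complex II lay lower in Hmga2 KO on all 4 of its subunits, with a median difference of -0.26, and 3 of the 4 had an unadjusted p under 0.05. Of all genes, 67.6% had a difference below 0 and 10.3% such a p with a lower level. Sdhb, the iron-sulphur subunit, had log2 values of 11.60, 11.77 and 11.89 in wild type replicates 1 to 3 and of 11.14, 11.58, 11.41 and 11.30 in Hmga2 KO replicates 1 to 4. The groups did not overlap, and the difference was -0.40 (SE 0.13, adjusted p = 0.296, limma). Sdhc, a membrane anchor, had 11.77, 11.89 and 11.92 in wild type and 11.48, 11.70, 11.64 and 11.54 in Hmga2 KO. Here too the groups were apart, by a smaller difference of -0.27 (SE 0.10, adjusted p = 0.310, limma). Another bright probe set of Sdhc gave only -0.08, with overlap. Sdhd, the other anchor, had 12.51, 12.65 and 12.78 against 12.27, 12.55, 12.39 and 12.39, a difference of -0.25. On this probe set Hmga2 KO replicate 2 lay within the wild type range. A further bright probe set of Sdhd gave -0.41, with the groups apart. Sdha, the flavoprotein that oxidises succinate, had 12.77, 12.96 and 13.02 against 12.68, 12.93, 12.61 and 12.81. Its difference of -0.16 (95% interval -0.41 to 0.09) was the least of the 4, and its groups overlapped. The other bright probe set of Sdha gave -0.32, so the order of the 4 depends on the probe set. The 4 assembly factors Sdhaf1 to Sdhaf4 had differences of -0.24, -0.27, -0.26 and -0.06, and none of them separated the groups.

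Complex III had the lowest median of the complexes, -0.32, with all 9 subunits below 0, where 67.6% of all genes were. An unadjusted p under 0.05 with a lower level was seen for 6 (66.7%), against 10.3% of all genes. Uqcrc1, a core protein, had log2 values of 12.12, 12.31 and 12.06 in wild type and 11.62, 11.95, 11.60 and 11.81 in Hmga2 KO. All 4 Hmga2 KO samples lay below all 3 wild type samples, with a difference of -0.42 (SE 0.12, 1.34-fold, adjusted p = 0.283, limma). Cyc1, the cytochrome c1 that passes electrons to cytochrome c, had 11.89, 12.26 and 12.08 against 11.51, 11.85, 11.87 and 11.53. These groups were also apart, with a difference of -0.38 (SE 0.14, adjusted p = 0.313, limma), which was the same in male and female Hmga2 KO samples (-0.38 each). The small subunit Uqcrq had 11.66, 11.96 and 11.87 against 11.38, 11.69, 11.36 and 11.49, and Uqcr10 had 11.52, 11.80 and 11.94 against 11.22, 11.64, 11.32 and 11.37. In both, Hmga2 KO replicate 2 was the highest of its group and reached into the wild type range, with differences of -0.35 and -0.37. The Rieske protein Uqcrfs1 and the hinge protein Uqcrh differed by -0.32 and -0.27, and the small subunit Uqcr11 by -0.29.

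The complex III members with the largest p were Uqcrc2 and Uqcrb. Uqcrc2, the other core protein, had 12.82, 13.01 and 13.23 against 12.57, 13.00, 12.81 and 12.73, a difference of -0.24. Uqcrb, which takes part in binding ubiquinone, had 14.14, 14.08 and 14.24 against 14.00, 14.16, 14.07 and 14.09. Its difference of -0.07 (95% interval -0.28 to 0.13) equalled the median of all genes. Cytochrome c, the mobile carrier between complexes III and IV, is encoded by Cycs. It had 13.84, 13.77 and 13.99 in wild type and 13.68, 13.75, 13.75 and 13.82 in Hmga2 KO. The groups overlapped, and the difference was -0.12 (SE 0.09, adjusted p = 0.592, limma).

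In complex IV the common subunits differed least. The median of the 10 genes used in most tissues was -0.14, and 2 of them, Cox8a and Cox6b1, had an unadjusted p under 0.05. This is 20% of the 10, against 10.3% of all genes with such a p and a lower level. Cox8a, the common form of subunit VIII, had log2 values of 11.73, 11.91 and 11.93 in wild type and 11.36, 11.76, 11.50 and 11.50 in Hmga2 KO. Only Hmga2 KO replicate 2 reached into the wild type range, and the difference was -0.33 (SE 0.12, adjusted p = 0.311, limma). Cox6b1, the common form of subunit VIb, had 12.89, 13.15 and 13.06 against 12.61, 12.90, 12.70 and 12.78, a difference of -0.28. Cox4i1, the common form of the largest nuclear-encoded subunit, had 13.20, 13.25 and 13.36 against 13.07, 13.17, 13.13 and 13.14. Its groups did not overlap although the difference was only -0.14 (95% interval -0.34 to 0.05), since both groups were tight. Cox5a and Cox5b, which lie on the matrix side, differed by -0.19 and -0.16.

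The common forms of subunits VIa and VIIa, unlike Cox8a, had no unadjusted p under 0.05. Cox6a1 had 13.19, 13.35 and 13.51 in wild type and 13.13, 13.32, 13.22 and 13.15 in Hmga2 KO, a difference of -0.15. Cox7a2 had 14.04, 13.95 and 14.11 against 13.89, 14.02, 13.93 and 13.95, a difference of -0.09. Both pairs of groups overlapped. Cox6c had 12.99, 13.24 and 13.23 against 13.03, 13.04, 13.23 and 13.00, and Cox7a2l, a factor that joins complexes III and IV, had 12.75, 12.74 and 13.00 against 12.80, 12.73, 13.04 and 12.81. Their differences of -0.08 and 0.01 had the largest p of complex IV. Cox7c had a difference of 0.35, whose 95% interval of -0.32 to 1.02 spans 0, with values of 9.07, 10.16 and 9.15 against 9.24, 10.17, 9.77 and 10.08. Wild type replicate 2 and Hmga2 KO replicate 2, the highest samples for Cox7c, also had the highest 3'/5' Actb ratios, whose part in this result was not tested.

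The muscle isoforms of complex IV had the lowest differences of all members, at -1.15, -1.12 and -0.56. Cox8b, the heart and muscle form of subunit VIII, had log2 values of 8.31, 8.91 and 8.72 in wild type and 7.09, 8.08, 7.24 and 7.58 in Hmga2 KO. The groups did not overlap, with means of 8.65 ± 0.31 (SD, n = 3) and 7.49 ± 0.44 (SD, n = 4). Cox8b was thus 2.22-fold lower in Hmga2 KO (-1.15, SE 0.24, adjusted p = 0.214, limma). Cox6a2, the muscle form of subunit VIa, had 9.43, 10.79 and 9.75 against 7.57, 9.90, 8.89 and 9.12. Hmga2 KO replicate 1 was far below the rest and replicate 2 within the wild type range, so the difference of -1.12 had a wide 95% interval of -2.26 to 0.02. It was -0.69 without Hmga2 KO replicate 1, -0.72 without wild type replicate 2 and -0.48 in females alone. Another probe set of Cox6a2 gave -1.10. Cox7a1, the muscle form of subunit VIIa, had 7.62, 7.92 and 7.61 against 6.34, 7.59, 7.42 and 7.27. All Hmga2 KO samples were the lower ones, but replicate 2 by only a small margin, and the difference of -0.56 (SE 0.27, adjusted p = 0.399, limma) was -0.29 without Hmga2 KO replicate 1.

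Markers of differentiated muscle fibres were low in the same samples. All 15 markers of that list, with a median of -0.63, had a difference below 0, as did 67.6% of all genes. Of the 15 markers, 7 (46.7%) had an unadjusted p under 0.05, against 10.3% of all genes with lower levels. In 2 (13.3%) the groups did not overlap, against 9.29% of all genes. Between the sexes of Hmga2 KO, 13 had an unadjusted p under 0.05 with a lower level in males, against 3.64% of all genes. The median difference from wild type was -0.26 in female and -1.01 in male Hmga2 KO samples. Myh8, the perinatal myosin heavy chain, differed by -1.35 and Casq1, which stores calcium in the sarcoplasmic reticulum, by -1.44. Relative to each gene's mean over the 7 samples, the median of the 15 markers was 0.08, 0.70 and 0.31 in wild type replicates 1 to 3 and -1.04, 0.37, -0.28 and -0.13 in Hmga2 KO replicates 1 to 4. For the 3 muscle isoforms the same medians were 0.23, 0.92 and 0.40, then -1.06, 0.19, -0.46 and -0.23. Wild type replicate 2 was highest and Hmga2 KO replicate 1 lowest in both, and Hmga2 KO replicate 2 was the highest of its group. Wild type replicate 2 and Hmga2 KO replicate 2 are also the samples with the highest 3'/5' Actb ratios (1.94 and 1.74), whose part in this pattern was not tested. The mean of the marker list on that scale ranged from 0.11 to 0.72 in wild type and from -1.05 to 0.35 in Hmga2 KO, and the part of fibre content in the differences of the members was not tested. In RNA of whole cultures, fewer differentiated cells and less RNA per cell cannot be told apart.

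The difference of each tissue isoform was then set against that of its common form within each array. Relative to the wild type mean, the log2 difference Cox8b minus Cox8a was -0.21, 0.21 and 0.00 in wild type and -1.06, -0.47, -1.05 and -0.71 in Hmga2 KO. The groups were apart, and Cox8b was lower by a further 0.82 than Cox8a, with an exact two-sided permutation p of 0.0286, the smallest that 35 splits allow, and 0.114 after adjustment over the 4 pairs. For Cox6a2 minus Cox6a1 the values were -0.40, 0.80 and -0.40, then -2.20, -0.06, -0.98 and -0.67. The difference was -0.98 (exact permutation p = 0.20, also after adjustment). For Cox7a1 minus Cox7a2 they were -0.10, 0.28 and -0.18, then -1.24, -0.11, -0.19 and -0.36, a difference of -0.48 (exact permutation p = 0.171, adjusted 0.20). In both of these pairs Hmga2 KO replicate 2 lay within the wild type range. The lung isoform Cox4i2 set against Cox4i1 went the other way, by 0.29 (exact permutation p = 0.114, adjusted 0.20), but Cox4i2 itself was near background at 6.35 to 6.77.

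**Figure D2:**
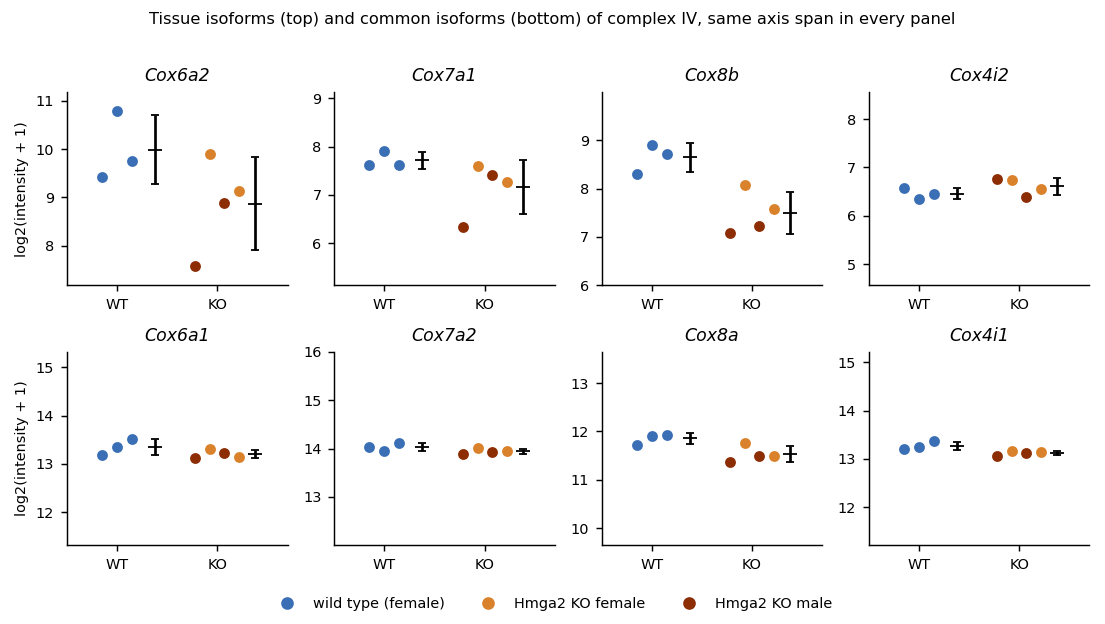
Log2(intensity + 1) of 4 tissue isoforms of complex IV (upper row) and their common forms (lower row) in each sample, with the mean and SD of each group at its right (wild type n = 3, Hmga2 KO n = 4). Axes span the same number of log2 units in every panel, and Cox8b and, by a small margin, Cox7a1 have groups that do not overlap, while the 4 common forms have differences between -0.33 and -0.09.

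The remaining 4 tissue isoforms are those known from testis and lung. Cox6b2, the testis form of subunit VIb, had log2 values of 9.47, 9.68 and 8.85 in wild type and 9.89, 10.46, 9.99 and 10.33 in Hmga2 KO. Every Hmga2 KO sample lay above every wild type sample, with a 1.78-fold difference (0.83, SE 0.21, adjusted p = 0.260, limma). It was 1.06 in females alone and 0.59 without wild type replicate 3, the lowest sample. The testis isoform Cox7b2 and the lung isoform Cox4i2 were at or near background and differed by -0.25 and 0.15. The testis isoform Cox8c was dim, at 6.80 to 7.45, and differed by 0.25. Cox7b2 separated the groups, with 5.65 to 6.05 in wild type and 5.50 to 5.60 in Hmga2 KO, levels around the background of 5.89.

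All 17 subunits of complex V had a difference at or below 0, with a median of -0.20, and 6 (35.3%) had an unadjusted p under 0.05. Among all genes 67.6% had a difference below 0, and 10.3% had such a p with a lower level. Atp5j2, the membrane subunit f, had log2 values of 12.61, 12.89 and 12.77 in wild type and 12.38, 12.60, 12.40 and 12.47 in Hmga2 KO. The groups lay just apart, with a difference of -0.29 (SE 0.10, adjusted p = 0.310, limma), and a further bright probe set gave -0.30. Atp5o, which joins the peripheral stalk to the catalytic head, had 13.00, 13.19 and 13.26 against 12.72, 13.01, 12.82 and 12.85, a difference of -0.30. Only Hmga2 KO replicate 2 overlapped the wild type samples. Atp5e, the small epsilon subunit of the rotor, had 11.81, 12.33 and 12.04 against 11.59, 11.85, 11.67 and 11.72, and Atp5g1, a gene for the c subunit of the proton-driven ring, had 11.24, 11.72 and 11.70 against 11.09, 11.39, 11.17 and 11.01. These were the largest differences of complex V, at -0.35 and -0.39, and Hmga2 KO replicate 2 again overlapped the wild type range.

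The 3 genes that encode the same mature c subunit did not differ alike. Atp5g1 differed by -0.39 and Atp5g3 by -0.17, whereas Atp5g2 had 12.58, 12.35 and 12.60 in wild type and 12.56, 12.42, 12.55 and 12.49 in Hmga2 KO. Its groups covered the same range, with a difference of -0.00 (95% interval -0.23 to 0.22). The differences between these genes were not tested. Of the catalytic head, Atp5a1 (alpha) had groups that did not overlap and a difference of -0.17, while Atp5b (beta), Atp5c1 (gamma) and Atp5d (delta) differed by -0.20, -0.20 and -0.29 with overlap. In the peripheral stalk, Atp5h separated the groups (-0.24), and Atp5j (-0.21) and Atp5pb did not. Atp5pb had 13.44, 13.57 and 13.75 against 13.38, 13.49, 13.50 and 13.49, a difference of -0.12. Among the membrane subunits, Atp5k had tight wild type values of 13.11, 13.08 and 13.09, all above the Hmga2 KO values of 12.71, 12.97, 12.93 and 12.88. Its difference was -0.22, and Atp5l, Atp5md and Atp5mpl differed by -0.20, -0.20 and -0.15.

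The members varied together from sample to sample. Relative to each gene's mean, the median member stood at -0.00, 0.16 and 0.21 in wild type replicates 1 to 3 and at -0.21, 0.06, -0.09 and -0.11 in Hmga2 KO replicates 1 to 4. Hmga2 KO replicate 2 thus lay above wild type replicate 1 for the median member. Hmga2 KO replicate 1 was the lowest of the 7 samples for 34 members (65.4%) and for 21.3% of all genes. Wild type replicate 3 was the highest for 28 members (53.8%) and 29.6% of all genes, and wild type replicate 2 for 17 members (32.7%) and 23.0% of all genes. Hmga2 KO replicate 1 was also the lowest for 7 of the 9 myoblast markers, whose mean relative to each gene's mean was -0.01, 0.19 and 0.09 in wild type and -0.38, 0.27, -0.06 and -0.10 in Hmga2 KO. The part of myoblast content in the differences of the members was not tested. For all genes the medians were 0.00, 0.04 and 0.09, then -0.03, 0.02, -0.07 and -0.04.

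**Figure D3:**
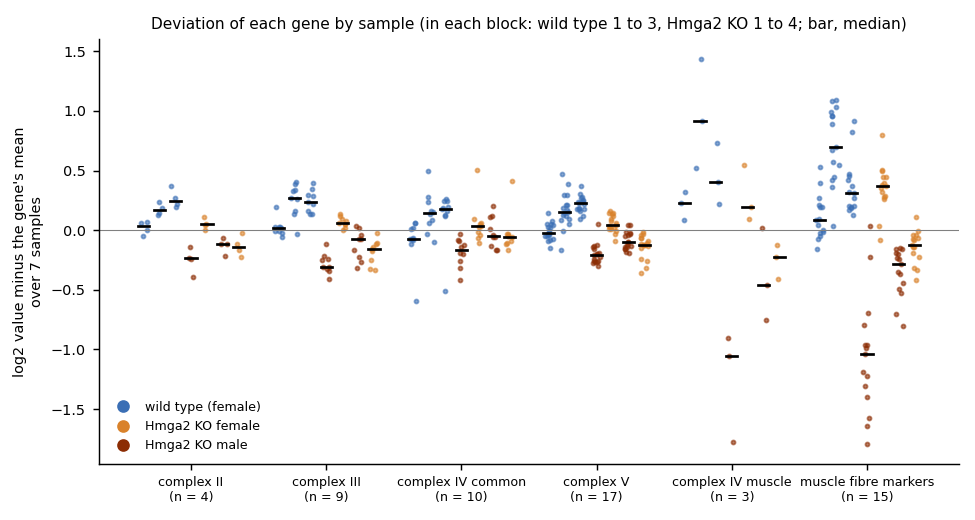
Log2 value of each gene minus its mean over the 7 samples, for subunits of complexes II, III, IV (common and muscle isoforms) and V and for 15 markers of muscle fibres, with the samples of a block in the order wild type 1 to 3 and Hmga2 KO 1 to 4. Bars are medians; Hmga2 KO replicate 1 is lowest in every block and Hmga2 KO replicate 2 has the highest median of the Hmga2 KO samples, with the widest spread in the muscle isoforms and fibre markers.

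The groups differ in sex as well as in genotype, so Hmga2 KO samples of both sexes were set against each other in a fit of 3 groups. In limma's test 0 members passed an adjusted p of 0.05 between them, as did 0.0385% of all genes. Of the members, 48 were lower in the males, with a median of -0.13, where 60.6% of all genes were lower, with a median of -0.04. Of these members 3 had an unadjusted p under 0.05, Sdhaf3, Cox8b and Cox6a2, against 3.64% of all genes. No member had such a p with a higher level in males, as 2.65% of all genes did. Sdhaf3, an assembly factor of complex II, had 9.48 and 9.50 in the male and 9.93 and 9.80 in the female Hmga2 KO samples, and 9.90 to 9.99 in wild type. The male values were the low ones, with a difference of -0.38 between the sexes (adjusted p = 0.589, limma). Female Hmga2 KO samples alone lay below the wild type females for 47 members, with a median of -0.16 (62.8% of all genes, median -0.05). The male Hmga2 KO samples did so for 46 members, with a median of -0.29 (68.8% of all genes, median -0.09). Cox8b was -0.82 in female and -1.48 in male Hmga2 KO samples. In the 3-group fit Cox8b passed the test for males against wild type (adjusted p = 0.0418, limma, 0.198% of all genes passed) and not for females (adjusted p = 0.472, 0.0220% of all genes), a contrast read after the values had been seen. No wild type male was measured, so sex and genotype cannot be told apart in the males.

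Regulators of mitochondrial genes were taken from a list of 17, all measured, and 5 had an unadjusted p under 0.05 with lower levels in Hmga2 KO and 0 with higher levels. This is 29.4% of the list against 10.3% of all genes. None passed the adjusted test, and the median of the list was -0.13. Esrrg, an oestrogen-related receptor abundant in oxidative muscle, had log2 values of 9.16, 9.71 and 9.19 in wild type and 7.18, 8.55, 8.01 and 8.40 in Hmga2 KO. Its groups did not overlap, with a difference of -1.32 (SE 0.30, adjusted p = 0.226, limma), and Hmga2 KO replicate 1 was again the lowest. Ppargc1a, the coactivator best known for inducing mitochondrial genes, had 8.95, 8.41 and 8.54 against 8.11, 8.29, 7.94 and 8.07, a difference of -0.53. Its relatives Ppargc1b and Pprc1 differed by -0.34 and -0.38, and the receptor Esrra by -0.24. Ppargc1a and Ppargc1b, like Esrrg, separated the groups, so that 3 of 17 (17.6%) did, where 9.29% of all genes had lower levels without overlap. Of the DNA-binding factors of the common promoters, Nrf1 was at 0.04, Gabpa at -0.13, Gabpb1 at -0.02 and Yy1 at -0.08. Tfam, which packages and transcribes mitochondrial DNA, was at 0.03, its partners Tfb1m, Tfb2m and Polrmt at 0.00, -0.12 and -0.15, and the receptors Ppard, Ppara and Esrrb and the muscle factor Perm1 at -0.27, 0.12, -0.01 and -0.15.

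**Figure D4:**
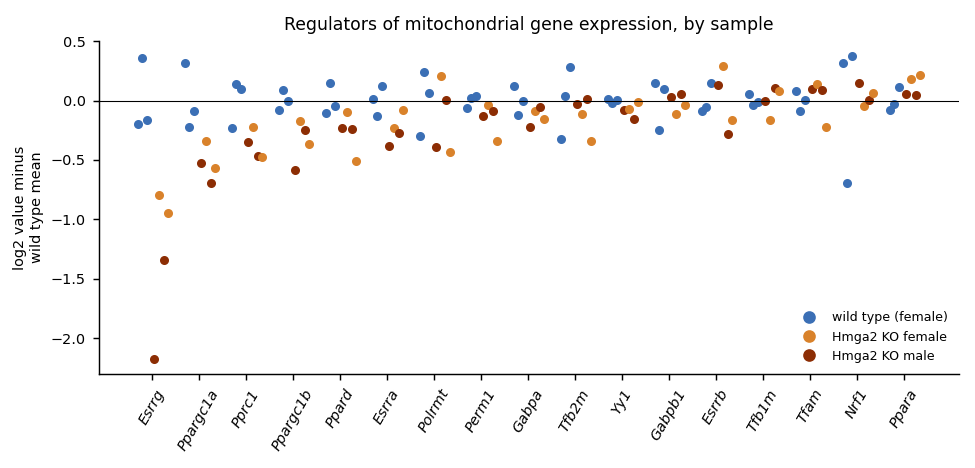
Log2 value minus the wild type mean, in each sample, of the 17 regulators of mitochondrial gene expression, ordered by their difference. Esrrg, Ppargc1a and Ppargc1b have all 4 Hmga2 KO samples below all 3 wild type samples, while Nrf1, Gabpb1 and Tfam scatter around 0.

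Genes that assemble these complexes or work beside them also had medians below that of all genes, and their counts stand against the 10.3% of all genes that had an unadjusted p under 0.05 with a lower level. Of the assembly factors outside the members, 33 were measured, with a median of -0.21, and 14 (42.4%) had such a p. They were led by Cox10, which makes the haem of complex IV, at -0.54, and by the complex III factors Uqcc2 and Uqcc1 at -0.46 and -0.44. Of 35 subunits of complex I, 15 (42.9%) had such a p, with a median of -0.27. Of 76 mitochondrial ribosomal proteins, 43 (56.6%) did, with a median of -0.26, and of 13 enzymes of the citrate cycle 8 (61.5%) did, with a median of -0.32. In none of these lists did a gene pass the adjusted test in limma or have an unadjusted p under 0.05 with a higher level. Of the subunits encoded by mitochondrial DNA only ND5, of complex I, was measured, and it differed by 0.05 (95% interval -0.17 to 0.26). Whether the members differ from these other lists was not tested.

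**Figure D5:**
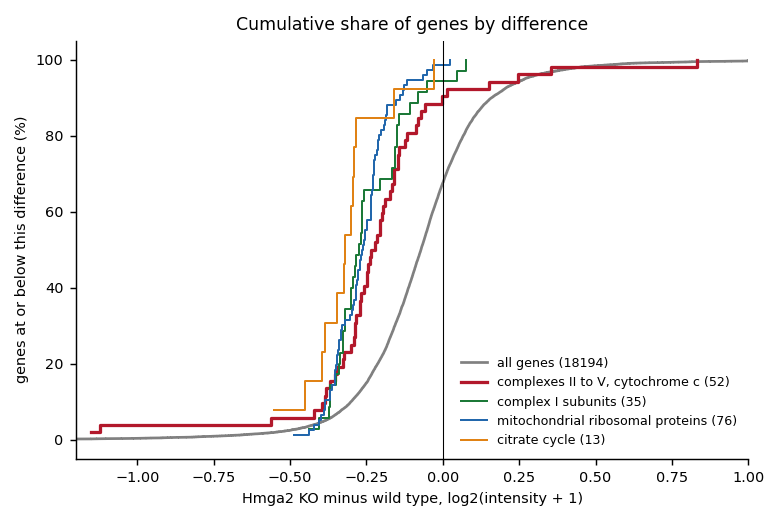
Cumulative share of genes by their difference in log2(intensity + 1), Hmga2 KO minus wild type, for all 18194 genes, the 52 members, 35 subunits of complex I, 76 mitochondrial ribosomal proteins and 13 enzymes of the citrate cycle; 3 of the plotted differences of members lie apart, Cox8b, Cox6a2 and Cox6b2. The curves of all 4 mitochondrial lists run to the left of that of all genes over most of their length, with medians of -0.23 to -0.32 against -0.07.

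Further probe sets of the members mostly gave the same direction. The members have 102 probe sets, of which 78 had a mean log2 value of at least 9, and 74 of these had a difference below 0. Of the 31 bright probe sets that did not represent their gene, 30 had the sign of the one that did, though probe sets of 1 gene are not independent samples. For Cycs the 3 bright probe sets gave -0.12, -0.18 and -0.26. The 14 members represented by a probe set that can match several transcripts or relatives had a median of -0.26, and the others -0.21.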

How the data were processed

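RNA of 7 myoblast samples was labelled with biotin and measured on Affymetrix arrays. The deposited table holds linear probe set intensities, which the authors brought to a common median. Neither the summarization nor the background correction is stated in the labels, and no detection call was used. The analysis used log2(intensity + 1) without further scaling. No background was subtracted here, and the lowest intensity of an array was 33.2 to 36.7, so differences of dim genes are understated.

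Of 45101 probe sets, 34958 were paired with 1 gene by the platform annotation and 932, paired with several, were left out. For each of 18194 genes the brightest probe set was used. Groups follow the sample titles. The comparison used limma 3.58.1 (lmFit, eBayes; R 4.3.3) with no covariate. P-values were adjusted by Benjamini-Hochberg over all genes, and the threshold was 0.05. Sexes within Hmga2 KO were compared in a 3-group fit. Pairs of isoforms were tested by exact two-sided permutation over 35 splits. The scripts were tested on simulated data.

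The members, the gene lists and the genes given with values in every sample were chosen with earlier results of these data known. Every member may be named. Values in every sample are given for complex II, the isoform pairs, Cyc1, Cycs, the 4 members with the smallest and 2 with the largest p in complexes III, IV and V, and up to 6 members without overlap of the groups. Up to 4 genes with the smallest p were allowed for the other lists, not all of which are given. The alternatives were a sex covariate, the females alone, a block on the replicate number, each sample left out, 2 other scalings, a pseudocount of 16, leaving out the dimmest 40% of genes, 2 other choices of probe set, a trended and robust prior, and array weights. Promoter sequences are from RefSeq (GRCm38.p6). Members without an entry, and member promoters on the chromosome left out by the selection, were not analysed here.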

Additional observations from a re-analysis of the deposited data

Results flagged for a closer look

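In Atp5g2, a gene for the c subunit of complex V, both male Hmga2 KO samples lay above the wild type mean and both female ones below it, and the sexes differed by 0.0974 on the log2 scale; the difference did not pass limma's test (adjusted p = 0.981). In the 4 Hmga2 KO samples, 2 members had 1 sample far from the others. For Atp5pb, a peripheral stalk subunit of complex V, Hmga2 KO replicate 1 was the lowest at 13.38, a gap of 0.870 of the whole range of the group. For Atp5md, a small membrane subunit of complex V, Hmga2 KO replicate 2 was the highest at 12.47, a gap of 0.904 of the range. Chance flags about 1 in 20 groups by this measure, and 52 members were examined.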

How the results depend on the processing

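The median difference of the members kept its direction under all 18 alternatives, at -0.29 to -0.16 with each sample left out and at -0.25 to -0.15 under the others. Over the members, 44 of 52 kept their sign throughout, and the 4 isoform pairs did wherever they were recomputed. The 18 alternatives are not separate estimates. Sex in the model and females alone give the same differences by design, as do the replicate block and leaving out Hmga2 KO replicate 4. The trended and robust prior leaves the differences of the main fit unchanged. The count of members with an unadjusted p under 0.05 and a lower level, 19 in the report, was 2 with sex in the model and in females alone. It was 11 after quantile normalization and 10 at a common 75th percentile. Over the alternatives that kept every sample or the females alone, 4.62% to 13.2% of all genes had such a p. With each sample left out the members' count was 3 to 29, where 5.47% to 13.8% of all genes had such a p. The count of all genes past the adjusted test was then 2 to 17 where it had been 5.

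With the replicate number as a block, 99 genes passed, 1 of them a member, Cox8b (adjusted p = 0.0312, limma; 0.0312 to 0.602 over all alternatives). Same-numbered samples had correlations of 0.31, 0.37 and -0.18 in their deviations from the group mean, and differently numbered ones -0.40 to 0.18. Hmga2 KO replicate 4 has no partner. Whether the numbers mark a pairing cannot be told from so few samples. The cause of these differences was not tested.

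Sdhaf4 turned to 0.00885 with sex in the model and in females alone, 0.0123 after quantile normalization and 0.0227 at a common 75th percentile. Cox7a2l turned to -0.0640 with sex in the model and in females alone, -0.00494 for the mean of its probe sets and -0.00395 with array weights, and was -0.0525 to 0.0970 with each sample left out. Atp5g2 turned to 0.0545 after quantile normalization, 0.0770 at a common 75th percentile, 0.0343 for the mean of its probe sets and 0.130 on the most variable one, and was -0.0862 to 0.0424 with each sample left out. At a common 75th percentile Uqcrb was 0.00870 and Cox6c 7.67e-05. Atp5c1 was 0.00571 for the mean of its probe sets, and on the most variable, dimmer probe set Uqcrq was 0.108 and Atp5j2 0.0105.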
